A study of Homo sapiens with 4 samples.

Results

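Arrays with more CDX1 by label were set against arrays with less CDX1 by label in 2 human colorectal cancer cell lines, to describe which genes differed the same way in both lines and which differed in opposed ways. All 4 of the 4 arrays of the series entered the comparison. The higher side held HCT116-CDX1 and LS174T-siVec, and the lower side held HCT116-Vec and LS174T-siCDX1, so each side had 1 array of each line and the line served as a block. HCT116 is an established colorectal carcinoma line, and LS174T is an established colon adenocarcinoma line that makes mucin. From the names, Vec and siVec were taken as the vector controls, CDX1 as the addition of CDX1 to HCT116, and siCDX1 as its knockdown in LS174T. The vectors, the small interfering sequence, the time after introduction, the passage and whether a modified line was a clone or a pool are not given in the sources used here. Each line and side was 1 array, and no label says that any culture was repeated. The features were the 33504 of 54675 probe sets that were annotated to 1 gene and that read 6 or more in log2 units on their brightest array. They named 17280 genes, each read from its probe set of highest mean, and 16530 of these had an array of at least 6 in both lines and are called measured in both lines.

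CDX1 is a caudal-type homeobox transcription factor of the intestinal epithelium. It acts with its relative CDX2 to set and maintain intestinal identity, and both bind AT-rich DNA around the core letters TTTATG. KRT20 encodes cytokeratin 20, an intermediate filament protein that marks differentiated cells of the upper crypt and the villus or surface, and the title of the series names it as regulated by CDX1.

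The CDX1 probe set separated the sides in LS174T only. Its level was 8.21 in HCT116-Vec, 8.24 on the array labelled HCT116-CDX1, 10.46 in LS174T-siVec and 9.06 in LS174T-siCDX1. CDX1 was thus 1.40 higher on the higher side in LS174T and 0.02 higher in HCT116 (log2), and both HCT116 arrays lay below both LS174T arrays. The position of the probe set relative to the sequence introduced into HCT116 is not given in the sources used here. For HCT116 the direction thus comes from the sample title and has no support from the CDX1 signal, and that sample is named below by its label. The 7 defining markers of colorectal epithelium (EPCAM, CDH1, KRT8, KRT18, KRT19, VIL1 and CDX2) were at 6 or more on every array. Their median was 12.47, 12.68 and 12.12 in HCT116-Vec, the array labelled HCT116-CDX1 and LS174T-siVec, and 10.43 in LS174T-siCDX1. On both LS174T arrays that median was the level of KRT19, which LS174T-siVec read higher by 1.69. The other markers were higher in LS174T-siVec by 0.04 (CDH1), 0.29 (EPCAM), 0.35 (CDX2), 0.54 (KRT18), 0.97 (VIL1) and 1.49 (KRT8). The part of these marker differences in the LS174T results was not tested. Array medians over all probe sets lay between 7.04 and 7.06, so a level of 6 is a dim reading rather than a sign that a gene is expressed.

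In what follows a difference is the CDX1-higher minus the CDX1-lower array of a line on the RMA log2 scale, in which 1 unit is 2-fold. For LS174T it is siVec minus siCDX1, so a positive value means a lower level after the labelled knockdown. A fold marked "at least" is taken against 6 where the dimmer array read under 6. The mean difference is the average of the 2 lines with the standard error (SE) of limma, fitted over all 33504 probe sets with the line as a block and 2 arrays a side. This SE rests on how far the differences of the 2 lines disagree and on the spread shared over all probe sets. It is therefore small where the lines differ alike, which the choice of shared genes favours, and it holds no spread between cultures.

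KRT20 stood furthest apart. It read 6.36 in HCT116-Vec and 9.38 on the array labelled HCT116-CDX1, 5.45 in LS174T-siCDX1 and 8.15 in LS174T-siVec. Both higher arrays lay above both lower arrays, with a gap of 1.79 between the dimmer higher array and the brighter lower array. The mean difference was 2.86 ± 0.16 (SE). Even so, limma gave KRT20, its first probe set by p, a Benjamini-Hochberg adjusted p of 0.752, which ranged from 0.139 to 1 over the 10 other settings of the fit. An exact 2-sided permutation of the sides within each line has 4 arrangements and gave p = 0.5 for KRT20, the smallest it allows here. Limma called 0 of 33504 probe sets at an adjusted p under 0.05 (0%), although 1105 had an unadjusted p under 0.05. The residual had 1 degree of freedom. The genes below are therefore described by the size of their differences and are not called changed.

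At a threshold of 2-fold in each line, 18 of the 16530 genes measured in both lines were higher on the CDX1-higher array of both lines (0.109%), and 2 were lower in both (0.0121%). Another 9 were 2-fold apart in opposed directions, 5 of them higher in HCT116 (0.0302%) and 4 higher in LS174T (0.0242%). Line by line, 131 genes were at least 2-fold higher in HCT116 (0.792%) and 141 lower (0.853%), and in LS174T 193 were higher (1.17%) and 85 lower (0.514%). The balance in HCT116 depended on scaling, with 140 higher and 112 lower after quantile normalisation. The 18 genes made up 13.7% of those higher in HCT116 and 9.33% of those higher in LS174T, while the 2 lower genes made up 1.42% and 2.35% of the lower ones. These shares describe 4 arrays, and the spread between cultures was not measured.

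**Figure D1:**
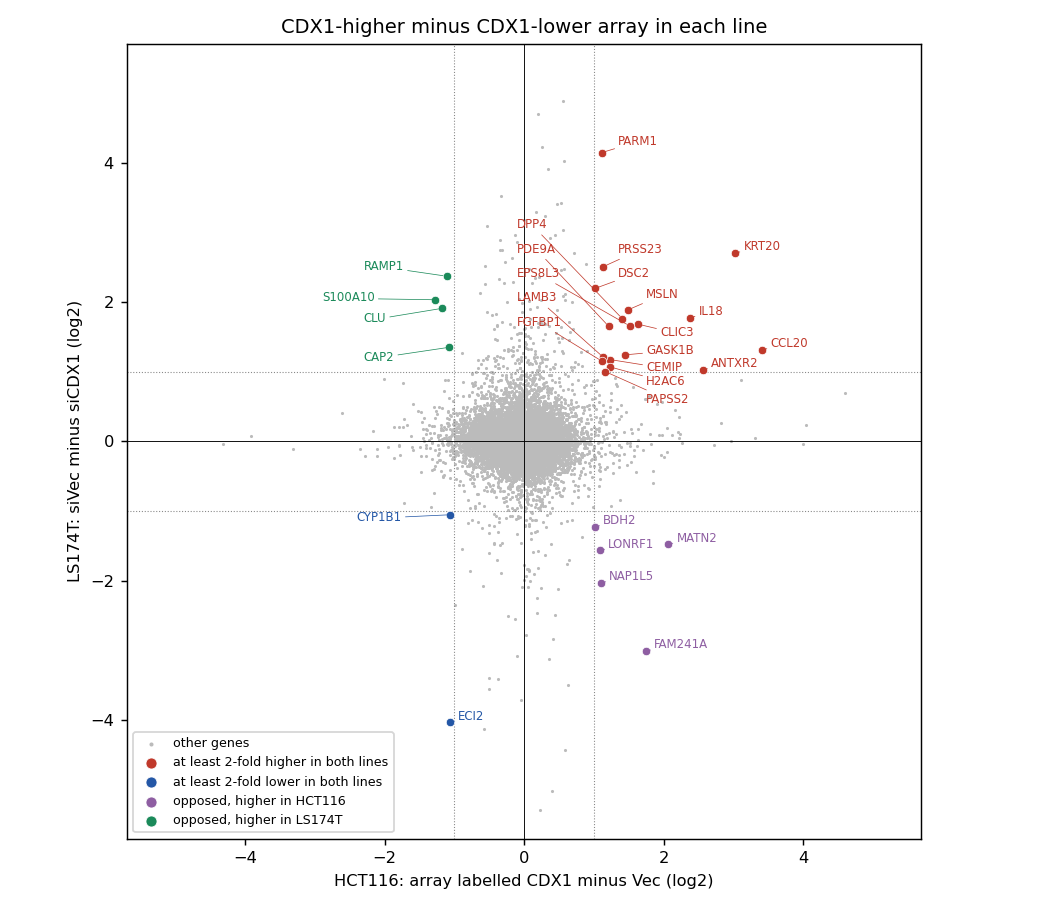
Difference between the CDX1-higher and the CDX1-lower array in HCT116 (horizontal axis, log2) and LS174T (vertical axis, log2) for 17280 genes, with dotted lines at 2-fold and 1 point per gene. The 18 genes higher in both lines, led by KRT20 at 3.03 and 2.70, lie in the upper right, ECI2 and CYP1B1 in the lower left, and the 9 opposed genes in the other corners, while many genes that differ in 1 line lie near 0 in the other.

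The promoter of KRT20 and those of the genes that follow it in the order of the smaller difference, with levels under 6 set to 6, are shown because they lead that order among the genes with a listed promoter. The sequences are the 250 bases before the transcription start in RefSeq's GRCh38.p14, written 5′ to 3′ on the strand of the gene, with TTTATG or its reverse complement CATAAA in capitals. They lie at chr17:40885243-40885492 (KRT20, minus strand), chr9:136996569-136996818 (CLIC3, minus strand), chr1:109763924-109764173 (EPS8L3, minus strand), chr2:162074216-162074465 (DPP4, minus strand) and chr2:227813592-227813841 (CCL20, plus strand). The promoters of IL18, MSLN and PDE9A were not used here.
KRT20: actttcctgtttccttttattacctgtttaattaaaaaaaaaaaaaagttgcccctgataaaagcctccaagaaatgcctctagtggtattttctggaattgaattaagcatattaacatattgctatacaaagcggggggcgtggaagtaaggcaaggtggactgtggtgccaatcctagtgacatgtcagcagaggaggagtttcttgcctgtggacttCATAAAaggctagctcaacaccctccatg
CLIC3: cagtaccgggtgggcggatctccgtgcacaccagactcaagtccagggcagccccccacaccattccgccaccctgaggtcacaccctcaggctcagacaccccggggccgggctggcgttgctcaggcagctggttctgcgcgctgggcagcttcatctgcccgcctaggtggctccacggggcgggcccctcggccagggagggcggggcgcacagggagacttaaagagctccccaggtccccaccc
EPS8L3: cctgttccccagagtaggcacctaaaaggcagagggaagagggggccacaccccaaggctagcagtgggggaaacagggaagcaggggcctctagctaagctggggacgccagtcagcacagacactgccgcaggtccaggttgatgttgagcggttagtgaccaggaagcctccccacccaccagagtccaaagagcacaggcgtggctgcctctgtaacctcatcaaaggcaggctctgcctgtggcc
DPP4: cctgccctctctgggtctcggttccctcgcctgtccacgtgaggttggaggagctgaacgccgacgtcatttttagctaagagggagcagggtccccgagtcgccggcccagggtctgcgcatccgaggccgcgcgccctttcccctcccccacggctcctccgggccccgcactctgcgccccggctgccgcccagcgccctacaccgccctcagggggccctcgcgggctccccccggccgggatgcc
CCL20: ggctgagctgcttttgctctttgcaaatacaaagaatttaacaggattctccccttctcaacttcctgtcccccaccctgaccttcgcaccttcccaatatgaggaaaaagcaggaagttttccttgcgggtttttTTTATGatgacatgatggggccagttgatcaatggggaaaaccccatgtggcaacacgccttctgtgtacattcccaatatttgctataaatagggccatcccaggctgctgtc

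The KRT20 window held 1 match to the CDX core, on the strand opposite to the gene and 29 bases before the start, and the CCL20 window held 1 on the gene's own strand 114 bases before it. Windows from 250 bases before to 50 bases after the start were listed for 14 of the 18 shared higher genes, and 5 of the 14 held the 6 letters on either strand (35.7%). Beside KRT20 and CCL20 these were PRSS23 (own strand, 123 bases before the start), H2AC6 (own strand, 209 bases before) and ANTXR2 (opposite strand, 75 bases before). The same letters were found in 926 of 13591 windows of genes in the comparison (6.81%) and in 2995 of 27305 windows of all listed genes (10.97%). The window of ECI2 and the 5 listed windows of opposed genes held 0 matches. Posterior HOX factors bind similar letters and the window of 300 bases does not reach introns or distant enhancers, so these counts describe the letters and not binding.

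EPS8L3 and DPP4 were the genes of the differentiated enterocyte surface among the 18. No other of 29 measured brush border and digestion genes was 2-fold higher in both lines. The list medians were 0.08 in HCT116 and 0.16 in LS174T, with 13 genes above 0 in both lines and 5 below. EPS8L3, a relative of the actin regulator EPS8, read 7.50 in HCT116-Vec, 9.01 on the array labelled HCT116-CDX1, 8.64 in LS174T-siCDX1 and 10.30 in LS174T-siVec. The differences of 1.51 and 1.66 gave a mean of 1.59 ± 0.15 (SE), although the LS174T arrays were brighter on both sides. DPP4, the brush border dipeptidyl peptidase that trims proline-containing peptides, read 9.35 and 10.76 in the HCT116 pair and 7.91 and 9.67 in the LS174T pair, lower side first. Its differences were 1.41 and 1.76. Each of its other probe sets repeated the pattern, with 1.27 and 2.35 on the first and 1.86 and 3.17 on the other, the latter from a level of 4.56 in LS174T-siCDX1. CDH17, the liver-intestine cadherin and a literature target of CDX factors, lay just outside the 18 at 1.31 in HCT116 and 0.90 in LS174T.

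Cytokines with a role in the gut lining were also among the shared higher genes. IL18, an interleukin stored as a precursor in epithelial cells and released after cleavage, read 9.67 and 12.05 in the HCT116 pair and 7.05 and 8.82 in the LS174T pair. The differences were 2.38 and 1.77, with a mean of 2.08 ± 0.20 (SE), and the higher LS174T array stayed below the lower HCT116 array. CCL20, a chemokine that draws CCR6-positive lymphocytes and dendritic cells to mucosal epithelium, read 5.45 and 8.86 in HCT116 and 5.89 and 7.20 in LS174T. Both lower arrays were under 6, and CCL20 was at least 7.26-fold higher in HCT116 and at least 2.30-fold higher in LS174T. Among 23 measured epithelial cytokine and chemokine genes, 2 were at least 2-fold higher in both lines, these same genes, and 0 were lower in either line. CXCL1, a neutrophil attractant, was at 0.65 in HCT116 and 1.57 in LS174T, and IL32 at -0.08 and 2.04.

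Genes of adhesion, matrix and the cell surface numbered 6. DSC2, a desmosomal cadherin, read 10.03 and 11.05 in HCT116 and 7.80 and 9.99 in LS174T, with differences of 1.02 and 2.19, and its 3 other probe sets had the same signs. LAMB3, the beta chain of laminin-332 in the epithelial basement membrane, differed almost evenly, by 1.14 and 1.21, from 8.46 to 9.59 in HCT116 and from 7.21 to 8.42 in LS174T. MSLN, the surface glycoprotein mesothelin, went from 7.42 to 8.91 and from 5.57 to 7.46, and was 2.81-fold and at least 2.75-fold higher. The LAMB3 and MSLN arrays show the same layout, in which LS174T-siVec stood close to HCT116-Vec and LS174T-siCDX1 lay below both.

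ANTXR2, a surface receptor that binds basement membrane proteins and is known as an anthrax toxin receptor, read 9.05 in HCT116-Vec, 11.61 on the array labelled HCT116-CDX1, 9.04 in LS174T-siCDX1 and 10.07 in LS174T-siVec. Its lower arrays were thus level and its higher arrays were not, at 5.90-fold and 2.04-fold. PARM1, a mucin-like membrane protein, showed the reverse imbalance. It read 8.80 and 9.91 in HCT116 but 6.52 and 10.66 in LS174T, 2.16-fold and 17.7-fold higher. CEMIP, which takes part in hyaluronan breakdown, was far brighter in LS174T, from 11.07 to 12.25, than in HCT116, from 7.37 to 8.60, yet differed by 1.17 and 1.23.

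Secreted and intracellular genes completed the shared higher genes. FGFBP1, a carrier that releases fibroblast growth factors from the matrix, differed by 1.11 in HCT116 (8.09 to 9.20) and 1.15 in LS174T (9.59 to 10.74). PRSS23, a serine protease, differed by 1.13 (7.02 to 8.15) and 2.50 (8.57 to 11.07), and 1 of its 3 other probe sets had differences below 0, at -0.13 and -0.49. CLIC3, a chloride intracellular channel protein, had the second smallest p after KRT20, with 7.75 and 9.38 in HCT116, 6.34 and 8.02 in LS174T and a mean difference of 1.66 ± 0.15 (SE). PDE9A, a phosphodiesterase specific for cyclic GMP, read 8.42 and 9.64 in HCT116 and 5.72 and 7.37 in LS174T. That made it 2.32-fold and at least 2.59-fold higher.

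PAPSS2, an enzyme that makes the sulfate donor used for mucins and proteoglycans, was bright on every array, at 10.99 and 12.16 in HCT116 and 11.65 and 12.65 in LS174T. Its differences were 1.16 and 1.001, and its 2 other probe sets gave 1.12 and 1.10 on the first and 1.01 and 1.16 on the other. The histone H2A gene H2AC6 read 8.52 and 9.75 in HCT116 and 8.42 and 9.49 in LS174T, with differences of 1.23 and 1.07. Histone genes are close in sequence and H2AC6 was read from a probe set marked as shared between transcripts, so it is uncertain as a separate reading. GASK1B, a Golgi-associated kinase homologue, was the dimmest member, at 5.36 and 6.80 in HCT116 and 6.42 and 7.66 in LS174T. Against a level of 6 its HCT116 difference was 0.80, under the threshold.

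**Figure D2:**
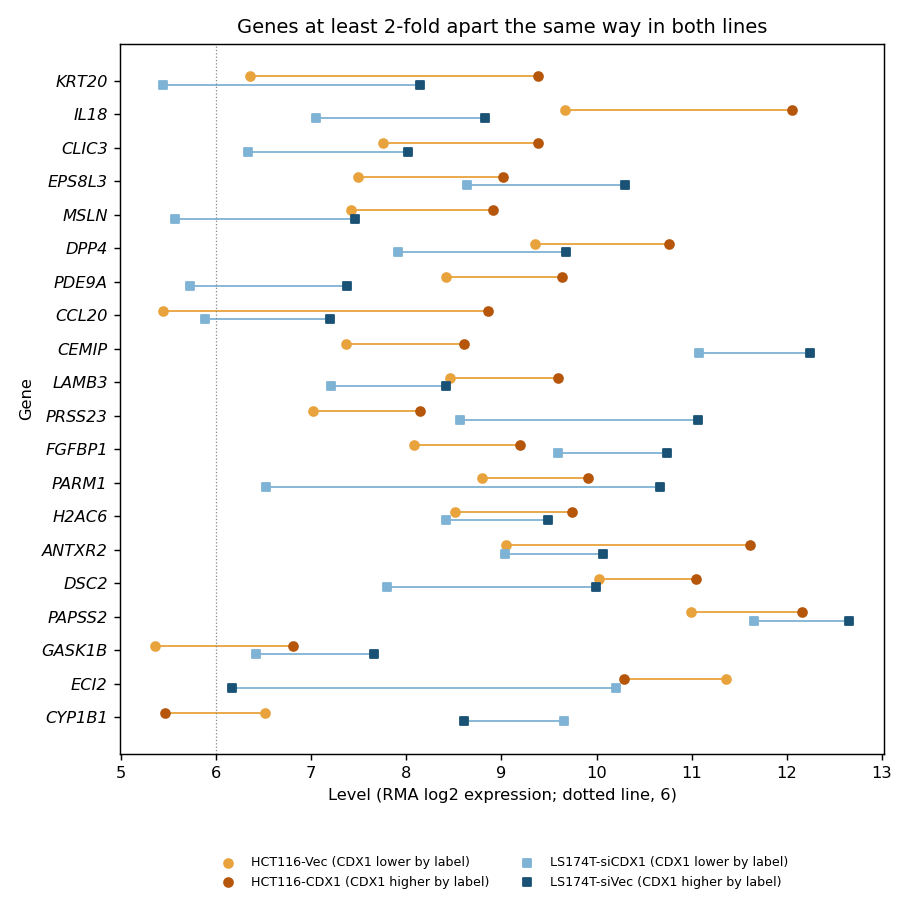
RMA log2 level (horizontal axis) of the 18 genes higher and the 2 genes lower in both lines (vertical axis), with HCT116 as circles and LS174T as squares, 1 array per point and a line joining the pair of each cell line. KRT20, CCL20, PARM1 and ANTXR2 have both higher arrays at least 1 unit above both lower arrays. Several others, CEMIP, PRSS23, IL18, PDE9A, FGFBP1 and CYP1B1 among them, differ more between the lines than between the sides in HCT116.

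The order of the arrays was largely shared among these genes. In 11 of the 18 both CDX1-higher arrays lay above both CDX1-lower arrays, while this held by any gap for 1435 of the 16530 genes (8.68%). The 18 were chosen for 2-fold differences, so a larger share follows in part from the choice. The gap was at least 2-fold for 4 of 17280 genes (0.0231%), KRT20 at 1.79, CCL20 at 1.31, PARM1 at 1.11 and ANTXR2 at 1.02. In the reverse direction the count was 0 (0%). Between the vector arrays, LS174T-siVec read above HCT116-Vec for 14 of the 18 and for 50.9% of all genes measured in both lines, although siVec is on the higher side and Vec on the lower, so the choice bears on this count too. LS174T-siCDX1 read below HCT116-Vec for 11, a count that the choice favours as well. The difference was larger in LS174T for 10 and larger in HCT116 for 8. The shares of all genes were not taken for the siCDX1 count or for the size of the difference, so these counts only describe the 18. Of 16 other member probe sets of 8 of these genes, 15 had the same signs, and 5 of them, in DPP4, PAPSS2 and DSC2, were also at least 2-fold higher in both lines.

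The genes lower on the CDX1-higher arrays of both lines were ECI2 and CYP1B1. ECI2 encodes an enoyl-CoA isomerase used to break down unsaturated fatty acids. It read 11.36 in HCT116-Vec and 10.29 on the array labelled HCT116-CDX1, but 10.20 in LS174T-siCDX1 and 6.17 in LS174T-siVec. The differences were -1.07 and -4.03, and 3 of the 4 arrays lay between 10.20 and 11.36, with LS174T-siVec alone far below. CYP1B1, a cytochrome P450 of xenobiotic and steroid metabolism, read 6.52 and 5.46 in HCT116 and 9.66 and 8.61 in LS174T, lower side first. Its HCT116 difference was -0.52 against a level of 6, and 0 of its 3 other probe sets were 2-fold lower in both lines. ZIC2, a zinc finger transcription factor, lay just outside at -0.99 and -2.34, and so did STEAP1, a surface metalloreductase relative, at -1.33 and -0.94.

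Genes with opposed differences address whether both lines responded alike. The 5 that were higher in HCT116 and lower in LS174T on the CDX1-higher side shared a layout in which LS174T-siVec was the dimmest array. FAM241A read 8.89 and 10.63 in HCT116, lower side first, and 8.11 and 5.10 in LS174T, with differences of 1.74 and -3.00. MATN2, a matrilin of the extracellular matrix, read 7.49 and 9.55 in HCT116 and 7.10 and 5.62 in LS174T. NAP1L5, an imprinted gene of the nucleosome assembly family, read 7.32 and 8.42, then 7.43 and 5.41. LS174T-siVec was under 6 for these genes and for LONRF1, which has a RING finger and read 9.11 and 10.20, then 7.35 and 5.79. BDH2, a short-chain dehydrogenase, read 7.98 and 8.99 in HCT116 and 7.54 and 6.31 in LS174T, with the smallest differences of the 5, at 1.01 and -1.23.

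The 4 genes with the reverse pattern were lower in HCT116 and higher in LS174T on the CDX1-higher side. S100A10, the partner of annexin A2 at the plasma membrane, was bright throughout, at 12.65 and 11.37 in HCT116 and 10.10 and 12.13 in LS174T. Its dim second probe set, between 6.10 and 6.47, differed by -0.15 and -0.23. CLU, the secreted chaperone clusterin, read 11.17 and 9.999 in HCT116 and 6.42 and 8.33 in LS174T, and 1 of its 3 other probe sets repeated the pattern at -1.02 and 1.08. RAMP1, a subunit of the CGRP receptor, read 9.12 and 8.01, then 8.08 and 10.45. CAP2, which binds actin, read 8.39 and 7.32, then 5.80 and 7.15, so that LS174T-siCDX1 was the dimmest array for each of these genes except RAMP1.

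As opposed differences require, the higher and lower sides overlapped in all 9. The difference between the lines was tested itself, with the modified arrays (the array labelled HCT116-CDX1 and LS174T-siCDX1) set against the vector arrays in limma with the line as a block. That fit has no term for the CDX1 side, so a mean difference shared by both lines enters its residual. The SE of that fit is therefore small where opposed differences are alike in size. Its coefficient, 0.5 times the HCT116 minus the LS174T difference, was 1.77 ± 0.20 (SE) for MATN2 and -1.74 ± 0.33 (SE) for RAMP1. The adjusted p was 0.920 for each of the 9, the smallest of the fit, and 0 of 33504 probe sets passed (0%), with 1256 at an unadjusted p under 0.05. FOS, an immediate early transcription factor, lay just outside the opposed genes at 0.99 and -0.93, as did PHGDH, the first enzyme of serine synthesis, at 1.25 and -0.93.

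**Figure D3:**
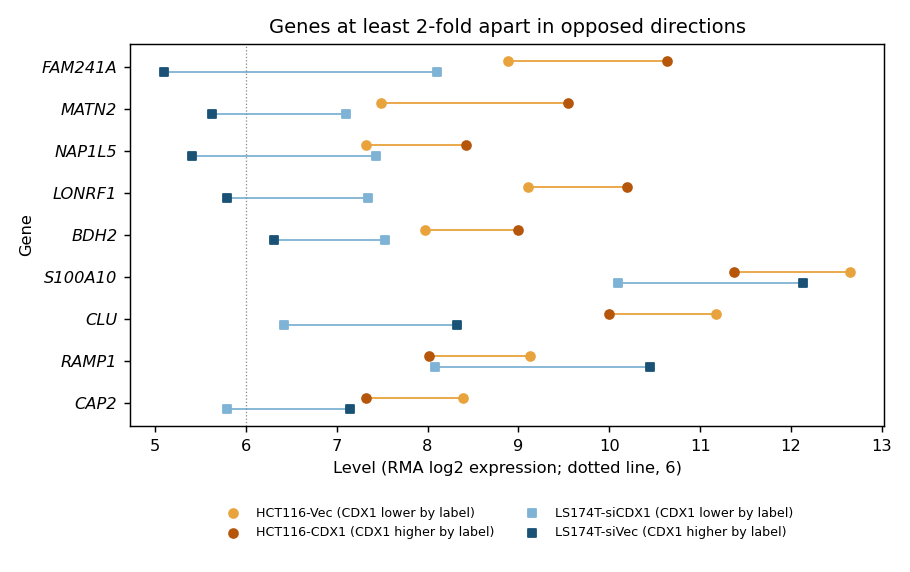
RMA log2 level (horizontal axis) of the 9 genes with opposed differences (vertical axis), with HCT116 as circles and LS174T as squares, 1 array per point and a line joining the pair of each cell line. In the upper 5 genes LS174T-siVec is the dimmest array, at 5.10 to 6.31, and in the lower 4 HCT116-Vec is brighter than the array labelled HCT116-CDX1.

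Most large differences belonged to 1 line. Of 521 genes at least 2-fold apart in at least 1 line, 243 were so in HCT116 and not in LS174T, and 249 in LS174T and not in HCT116. The genes 2-fold higher in HCT116 had a median of 0.18 in LS174T, and 84 of 131 were above 0 there. Those 2-fold higher in LS174T had a median of 0.09 in HCT116, with 114 of 193 above 0. For the lower genes the medians in the other line were 0.07 and 0.03, on the opposite side of 0. Over all 16530 genes 7713 had the same sign in both lines (46.7%), and Pearson's r between the differences of the lines was 0.0065 and Spearman's rho -0.06, as a description across genes, which are not independent replicates and share the 4 arrays and their processing.

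The genes described next were chosen as those furthest apart in 1 line with a difference under 0.3 in size in the other, so their separation of the lines follows from the choice. In HCT116, CCND2, a G1 cyclin, read 4.69 in HCT116-Vec and 8.74 on the array labelled HCT116-CDX1, while LS174T read 12.28 and 12.51. TBX3, a T-box transcription factor, showed the same layout, with 8.85 and 11.12 in HCT116 and 11.18 and 11.16 in LS174T, and so did MBNL3, an RNA-binding splicing regulator, with 6.87 and 9.10 against 10.12 and 10.17. In these genes HCT116-Vec was the dimmest array, and the array labelled HCT116-CDX1 lay between it and the LS174T pair. KRT23, a keratin, at 6.89 and 9.60, and MB21D2 at 7.69 and 9.90 were also higher in HCT116, with LS174T at 6.40 to 6.44 for KRT23. Those lower in HCT116 were NRIP1, a nuclear receptor corepressor, at -3.92, IKBIP at -2.28, MID1, a microtubule-associated ubiquitin ligase, at -2.17, EHF, an epithelial ETS factor, at -1.86 and the antisense gene PRR34-AS1 at -1.79.

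In LS174T the genes higher in siVec than in siCDX1 with little difference in HCT116 included genes of the mucosal surface. PIGR, the receptor that carries IgA across epithelium, read 7.66 in LS174T-siCDX1 and 12.35 in LS174T-siVec, against 7.75 and 7.95 in the HCT116 pair. CEACAM6, a cell adhesion molecule, read 7.52 and 10.82, against 7.35 and 7.51. For both, LS174T-siCDX1 lay at the level of the HCT116 arrays. FXYD5, a regulator of the sodium pump, differed by 2.96, the nucleobase transporter gene SLC43A3 by 2.86 and HKDC1, a hexokinase relative, by 2.63. Lower in LS174T-siVec were the cancer-testis antigen gene CTAG2 at -3.71, BNIP3, a mitophagy receptor, at -3.08, EMB, a membrane glycoprotein of the immunoglobulin family, at -2.78, KLHL4 at -2.55 and LOC105379362 at -2.46. For BNIP3 and EMB the LS174T-siVec array was the one that stood apart, at 7.39 and 6.25, while the other arrays read 10.10 to 10.48 and 9.03 to 9.38.

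Gene lists were described over the genes measured in both lines, beside all 16530, of which 23.5% were above 0 in both lines and 23.2% below 0 in both, with medians of -0.01 in HCT116 and 0.01 in LS174T. Among 21 literature targets of CDX factors, 4 were 2-fold higher in HCT116, 9 in LS174T and 2 in both, KRT20 and DSC2, while 0 were lower in either. The title of this series names KRT20 as regulated by CDX1, so its place in this list may not be independent of these arrays. The list medians were 0.19 and 0.90. HEPH, the ferroxidase hephaestin, stood at 4.61 in HCT116 and 0.69 in LS174T, and its second probe set, under 6 on every array, at -0.09 and -0.02. CLDN2, a pore-forming claudin, stood at -0.35 and 2.89. Of 30 cell junction genes 18 were above 0 in both lines and 1 below, with medians of 0.13 and 0.26, and of 29 brush border and digestion genes 13 were above and 5 below, with EPS8L3 and DPP4 the only ones 2-fold higher in both and MYO1D, a brush border myosin, at 0.89 and 0.81. CDH17 and JUP, a catenin of desmosomes, at 1.36 and 0.32, were the other junction genes 2-fold higher in HCT116.

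The goblet cell and mucin genes were above 0 in both lines for 15 of 26 and below in 2. MUC13, a membrane mucin, stood at 0.69 and 1.03, whereas MUC2, the gel-forming intestinal mucin, was at -0.07 and 1.37. In LS174T 18 of the 26 were above 0 and 4 were 2-fold higher, while 1, SPINK4, was 2-fold lower, at 0.09 in HCT116 and -1.31 in LS174T. Also below 0 in LS174T were ATOH1 at -0.10 and -0.68, FCGBP at 0.33 and -0.68 and TFF3 at 0.19 and -0.29. RAS-MAPK output genes were above 0 in both lines for 18 of 25 and below in 1, with medians of 0.26 and 0.42. DUSP6, a phosphatase that switches off ERK, stood at 0.69 and 1.99, the early growth response gene EGR1 at 0.83 and 1.08, and SPRY4, a feedback inhibitor of receptor signalling, at 1.46 and 0.42. Of 42 glycosyltransferase genes 18 were above and 3 below, with FUT1 at 1.23 and 0.42 and FUT3, the Lewis fucosyltransferase gene, at 0.30 and 1.18. None of these named genes passed 2-fold in both lines.

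Lists of synthesis and folding, and that of antigen presentation, had 0 genes below 0 in both lines. Of 26 cholesterol and fatty acid synthesis genes, 19 were above 0 in both lines and 0 below, with medians of 0.48 and 0.22. MSMO1, a sterol oxidase, stood at 1.14 and 0.52 and HMGCS1, which makes HMG-CoA, at 0.68 and 0.83. The 24 ER chaperone genes had 17 above and 0 below, although SDF2L1 was at -1.23 in HCT116 and 0.10 in LS174T. Of 20 antigen presentation genes 10 were above and 0 below, with HLA-E at 0.45 and 0.62, and the median of their mean differences was 0.24, or 0.06 without probe sets marked as shared between transcripts.

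Cell division was the theme on the other side of 0. Of 48 mitosis genes 39 were below 0 in both lines and 0 above, with medians of -0.50 in HCT116 and -0.19 in LS174T. Of 48 DNA replication and G1/S genes 37 were below and 3 above, with medians of -0.35 and -0.19. BUB1, a spindle checkpoint kinase, stood at -1.16 and -0.30, PTTG1, the securin gene, at -0.87 and -0.28, POLE2, a polymerase epsilon subunit, at -1.16 and -0.52 and PRIM1, a primase subunit, at -0.71 and -0.37. CCND2 went the other way. The differences were small: 0 genes of either list were 2-fold lower in both lines, and those 2-fold lower in HCT116 were BUB1, AURKA, CDC20 and POLE2.

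Some lists differed between the lines. Of 32 genes of ATF4 and amino acid stress, 9 were 2-fold higher in HCT116 and 0 in LS174T, with medians of 0.82 and 0.00. SLC7A11, the cystine transporter gene, was at 2.06 and 0.19, CHAC1, a glutathione-degrading enzyme, at 2.12 and 0.10 and PCK2, a mitochondrial gluconeogenic enzyme, at 1.71 and -0.12. The 7 metallothionein genes, which bind zinc and copper, had medians of -1.17 and 0.04 and opposite signs in the lines in every case. MT1E at -1.45 and 0.04, MT1F at -1.32 and 0.22, MT1H at -1.22 and 0.01 and MT1X at -1.17 and 0.03 were the 4 that were 2-fold lower in HCT116. These genes are close in sequence and are uncertain as separate readings. The HOX genes had medians of 0.06 and -0.18, with HOXB9 at 1.51 and -0.03 and HOXB7 at 0.31 and -1.23. The sign of the LS174T medians for the ATF4 and metallothionein lists flipped when a loess on the mean level was removed, and these differences between lists were not tested.

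**Figure D4:**
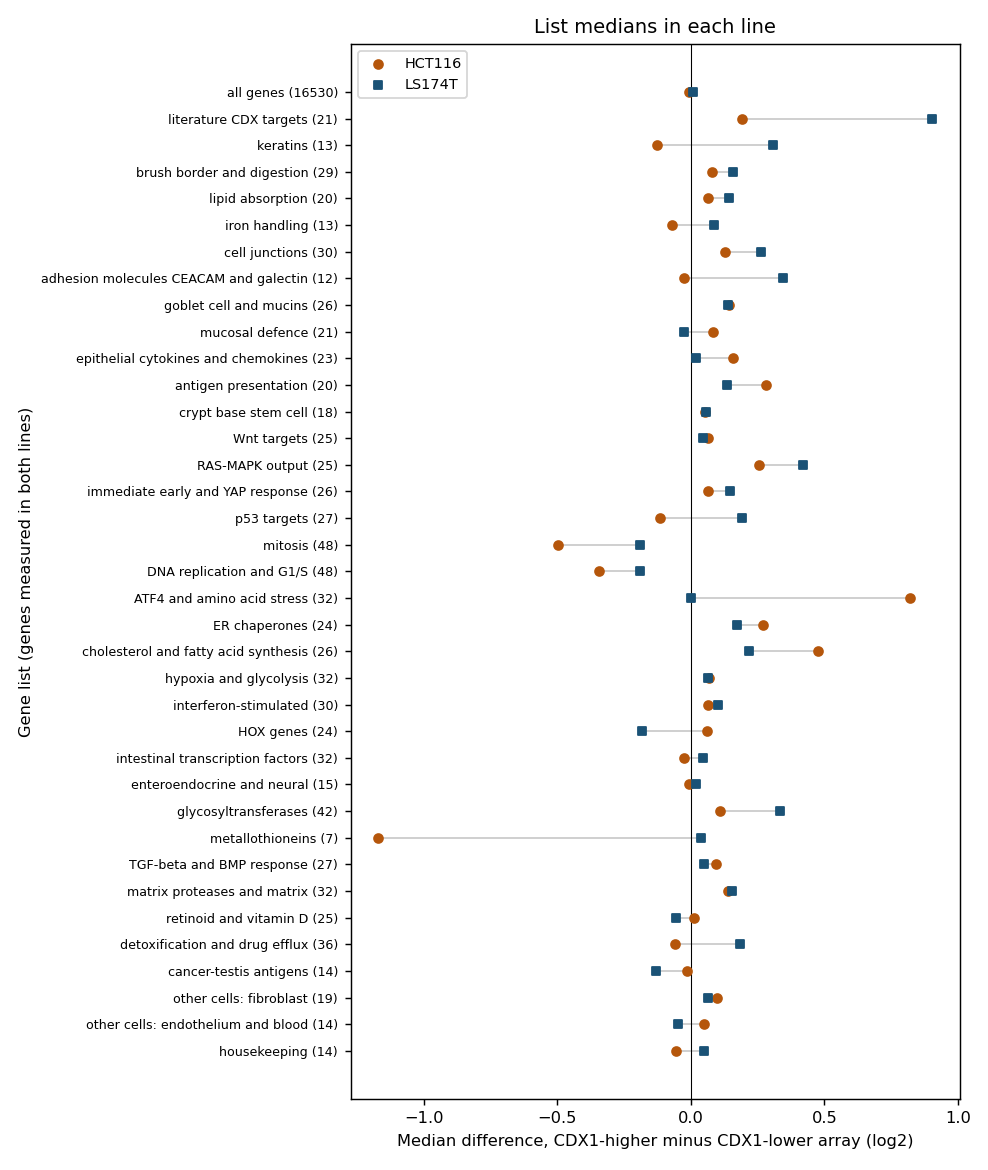
Median difference between the CDX1-higher and CDX1-lower array (horizontal axis, log2) in HCT116 (circles) and LS174T (squares) for each gene list and for all genes (vertical axis), with the number of genes measured in both lines in brackets. Mitosis and DNA replication lie below 0 in both lines, RAS-MAPK output and cholesterol synthesis above 0 in both, and the ATF4 and metallothionein lists lie away from 0 in HCT116 and near 0 in LS174T.

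Other lists of epithelial and signalling genes held differences of 1 line. Of 13 keratin genes 4 were above 0 in both lines and 2 below. KRT20 was the 1 that was 2-fold higher in both, beside KRT23 in HCT116 and KRT8 at 0.48 and 1.49, KRT80 at 0.56 and 1.27 and KRT19 at -0.20 and 1.69, which were 2-fold higher in LS174T. Of 12 CEACAM and galectin genes 3 were 2-fold higher in LS174T and 0 in HCT116, CEACAM6, LGALS4, a brush border galectin, at 0.53 and 1.64 and LGALS3 at -0.01 and 1.27. Of 21 mucosal defence genes PIGR and LCN2, the siderophore-binding lipocalin, at 0.21 and 1.07, were 2-fold higher in LS174T. The list as a whole did not follow them, with 9 of the 21 above 0 in LS174T and medians of 0.08 in HCT116 and -0.03 in LS174T. In both lines 5 of its genes were above 0 and 3 below. KRT20 and DSC2 each stand in more than 1 list, as do several other genes, so the lists are not separate readings.

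Among 32 matrix and matrix protease genes 16 were above 0 in both lines and 5 below, with medians of 0.14 and 0.15. LAMB3 was 2-fold higher in both lines. COL18A1, which encodes a basement membrane collagen, stood at 0.47 and 3.41, ITGA2, a collagen-binding integrin subunit, at 1.39 and 0.36 and the protease inhibitor gene TIMP2 at 0.37 and 1.03. Of 27 genes of the TGF-beta and BMP response, SKIL, a SMAD corepressor, stood at 1.79 and 0.65 and BMP7 at 0.26 and 1.68, and CCN2, a matricellular protein also listed with the immediate early and YAP genes, at -0.56 and 2.25. That list of 26 had 4 genes that were 2-fold higher in LS174T, CCN2, EGR1, IER3 and F3, and 0 in HCT116.

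Metabolic and detoxification genes were mixed. Of 36 detoxification and drug efflux genes 8 were above 0 in both lines and 10 below. CYP1B1 was the 1 that was 2-fold lower in both. ABCB1, a drug efflux pump, stood at 0.18 and 1.92, the bile salt exporter gene ABCC3 at 1.07 and 0.56 and GCLM, a glutathione synthesis subunit, at -1.74 and 0.20. Of 20 lipid absorption genes the long-chain acyl-CoA synthetases ACSL1 and ACSL5 differed in opposite ways in HCT116, at 1.43 and -1.32, and were at 0.14 and -0.01 in LS174T, where PLIN3, a lipid droplet coat protein, was at 1.65. Of 32 hypoxia and glycolysis genes ALDOC and VEGFA were 2-fold higher in HCT116, at 1.36 and 1.11, and BNIP3 was lower in LS174T. HEPH was the 1 of 13 iron handling genes that was 2-fold apart in either line.

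Of 32 intestinal transcription factor genes TBX3 and KLF5, a crypt zinc finger factor, at 2.05 and -0.15, were 2-fold higher in HCT116 and EHF lower, while CDX1 was the 1 that was 2-fold higher in LS174T. Of 15 enteroendocrine and neural genes GAL, which encodes the neuropeptide galanin, was at -0.50 and -3.55. Of 27 p53 targets CDKN1A, the cell cycle inhibitor p21, stood at -0.51 and 1.22, TRIM22 at -0.24 and 2.00 and the apoptosis effector gene BAX at -1.01 and 0.30, so each of these was on opposite sides of 0 in the lines. Of 25 retinoid and vitamin D genes NRIP1 was 2-fold lower in HCT116 and PLAAT4, at 0.15 and 1.20, higher in LS174T.

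The remaining lists held 4 or fewer genes that were 2-fold apart. Of 18 crypt base stem cell genes 0 were 2-fold apart in either line, and of 25 Wnt targets 3 were 2-fold lower in HCT116, VSNL1, a calcium sensor, NKD2, a Wnt antagonist, and BAMBI, a pseudoreceptor, at -1.16, -1.12 and -1.47, while the 1 gene 2-fold lower in LS174T was the Wnt inhibitor gene DKK1, at 0.83 in HCT116 and -1.37 in LS174T. The 30 interferon-stimulated genes had 2 that were 2-fold higher in LS174T, IFI27 at 0.88 and 2.54 and IFITM1 at 0.73 and 1.13, and 2 that were 2-fold lower in HCT116, IFIT1 at -1.06 and 0.18 and ISG15 at -1.14 and 0.88. The 14 cancer-testis antigen genes had 3 that were 2-fold lower in LS174T, CTAG2, MAGEA1 at -1.84 and MAGEC2 at -1.13, and 0 in HCT116. Of 14 housekeeping genes 0 were 2-fold apart, with B2M at 0.36 and 0.14.

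Markers of other cells did not move with the sides as lists. Of 24 fibroblast markers 21 read 6 or more on each HCT116 array and 19 on each LS174T array, with medians of 6.66 to 7.02, close to the array medians, and 0 of the 19 measured in both lines were 2-fold apart. Of 18 endothelial and blood markers 14 read 6 or more on each HCT116 array and 15 on each LS174T array. The 1 member that was 2-fold apart was the embryonic globin gene HBE1, at 0.62 and -3.49. Summed on the linear scale, the fibroblast markers came to 9036 and 7905 in the HCT116 pair and 3590 and 3859 in the LS174T pair, lower side first, and the endothelial and blood markers to 4854 and 6310, then 9968 and 5030. A level of 6 is a dim reading that lies below the median of each array, and the part of other cells in the results was not tested.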

How the data were processed

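Samples were 2 colorectal cancer cell lines, each with a vector control and a modified culture by title, with total RNA hybridised to 1 Affymetrix array per sample. The deposited log2 values of 54675 probe sets were made by the authors with RMA, per the submitters' processing notes, and its version and the arrays normalised together are not given in the sources used here. RMA equalises the distributions of arrays, so a shift of all genes could not be seen. Values were used as deposited. The platform annotation gave 41097 probe sets 1 gene, 1801 several and 11777 none, and 41043 of the first matched a RefSeq gene (GRCh38.p14). Probe sets of several genes named none.

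Limma 3.58.1 in R 4.3.3 fitted the CDX1 side, and separately the modified arrays, with the cell line as a block and Benjamini-Hochberg adjustment. On simulated data the fit of the CDX1 side was required to return the size of known changes, and no share of calls was required. All else used Python 3.11.15 with pandas 2.3.3 and scipy 1.17.1. The arrays have 1 sample per line and side, so their number limits the precision. With the line as a block any limma p rests on 1 residual degree of freedom and on the spread shared over all probe sets. It measures no spread between cultures. The members, rules and 36 gene lists (1026 distinct genes) were chosen with earlier results of these data known. Named genes were CDX1 and KRT20, all genes 2-fold apart in both lines, the 5 per line and direction that differed most in 1 line and under 0.3 in the other, and, in each list, genes among the 4 whose mean difference was largest. CDH17, ZIC2, STEAP1, FOS, PHGDH, EMP1, ATOH1, FCGBP, TFF3, the histone genes and, as list members 2-fold apart in 1 line, BAX, CDC20, CDKN1A, DKK1, F3, GCLM, ISG15, JUP, KRT19 and SPINK4 were added after their values were seen. Not all of the 4 were named in every list. The value nearest outside the floor of 6 was 5.99959 (SFMBT2), and that nearest inside was 6.00016 (LINC01120).

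Alternatives were a floor of 7 or none, levels under 6 set to 6, quantile normalisation, equal array medians, a loess against mean level subtracted, a gene read as the mean over its probe sets, no probe sets marked as shared between transcripts, thresholds of 1.5-fold and 3-fold, and limma with no line term, an intensity trend, robust moderation or 1 probe set per gene.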

Additional observations from a re-analysis of the deposited data

Results flagged for a closer look

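The genes at least 2-fold apart in opposed directions in the 2 lines differed between the lines by the amounts given here, as the HCT116 minus the LS174T difference on the log2 scale. Those higher on the CDX1-higher side in HCT116 and lower in LS174T were FAM241A at 4.75, MATN2 at 3.54, NAP1L5 at 3.13, LONRF1 at 2.65 and BDH2 at 2.24. Those of the reverse pattern were RAMP1 at -3.48, S100A10 at -3.30, CLU at -3.08 and CAP2 at -2.42. The difference between the lines was tested with limma on the 4 arrays, and each of the 9 had an adjusted p of 0.920. By the way these genes were chosen, the modified array lay on the same side of its own vector array in both lines. Effects of the modification other than CDX1 cannot be told apart from a response that differs between lines.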

How the results depend on the processing

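Limma called 0 probe sets for the CDX1 side and 0 for the difference between the lines in all 11 settings. At 1.5-fold 65 genes were higher and 24 lower in both lines, 26 were opposed with HCT116 higher and 41 with LS174T higher, and 18 had both sides apart. At 3-fold these counts were 3, 0, 1, 0 and 1. The 2 genes lower in both lines were 1 with a floor of 7, with levels under 6 set to 6, after quantile normalisation, with the loess subtracted and over mean probe set values, and 0 without shared probe sets. The opposed genes higher in HCT116 were 2 with the mean of probe sets and 3 without shared probe sets, and those higher in LS174T were 1 with the mean of probe sets. Equal medians gave 3 genes lower in both lines (ZIC2 gained), quantile normalisation 7 opposed genes higher in HCT116 (FOS and PHGDH gained), and the mean of probe sets gained RUBCNL among the genes higher in both lines. Without shared probe sets EMP1 joined the opposed genes higher in LS174T. In HCT116 the genes 2-fold higher and lower were 143 and 121 with the loess subtracted, and 122 and 154 with equal medians. The cause was not tested, beyond the fewer probe sets left without the shared ones. By gene, GASK1B and CYP1B1 dropped out against a level of 6 and with a floor of 7, ANTXR2, PAPSS2 and ECI2 after quantile normalisation and after the loess, and DSC2 and BDH2 with equal medians. The mean of probe sets lost ANTXR2, CEMIP, DSC2, PDE9A, PRSS23, CYP1B1, BDH2, LONRF1, MATN2, CAP2, CLU and S100A10, and leaving out shared probe sets lost CEMIP, H2AC6, MSLN, PAPSS2, PDE9A, CYP1B1, ECI2, BDH2 and MATN2. KRT20, IL18, CLIC3, EPS8L3, DPP4, CCL20, LAMB3, FGFBP1 and PARM1 stayed 2-fold higher in both lines in each of these settings at 2-fold. Of these only DPP4 and PARM1 have more than 1 probe set, so the 2 settings on probe sets could not move the others. The values of CDX1 and of the shared and opposed genes kept their sign in 162 of 162 alternatives and moved by more than the SE of the mean difference in 39. That SE was also used for the opposed genes, whose value is the HCT116 minus the LS174T difference. It is large where the lines disagree, at 1.12 for FAM241A, so a move of an opposed gene was counted less readily. The count of kept signs was partly fixed in advance. The shared genes were chosen for their sign in each line, which is among the alternatives. Raising levels to 6 cannot reverse a sign, and the mean of probe sets leaves a gene with 1 probe set unchanged. List medians of the mean difference kept their sign except for p53 targets, detoxification, hypoxia, TGF-beta, fibroblast and housekeeping genes. Leaving out 1 array leaves only the other line's own difference, with no residual degree of freedom and so no test, and these values stand in the text line by line. The line block pairs the arrays of each line. Without it the SE of KRT20 was 0.586 and its rank by p was 7.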

Other observations

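EMP1, an epithelial membrane protein, was picked out because of its values. Its probe set of highest mean read 10.49 in HCT116-Vec, 8.49 on the array labelled HCT116-CDX1, 6.78 in LS174T-siCDX1 and 7.67 in LS174T-siVec, with differences of -2.01 and 0.89, under 2-fold in LS174T. Another of its probe sets read 10.80 and 8.51 in HCT116 and 5.39 and 7.43 in LS174T, with differences of -2.29 and 2.04. On that probe set EMP1 would join the opposed genes, and it did so when shared probe sets were left out.

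Other linker and core histone genes, not all of the replication type, were looked at after H2AC6 was seen among the genes higher in both lines. Of 28 measured in both lines, 13 were above 0 in both and 6 below, with medians of 0.15 in HCT116 and 0.04 in LS174T. H2BC12 stood at 0.78 and 1.11, H2BC21 at 0.998 and 0.87 and H2BC5 at 0.97 and 0.61. Messages of replication-type histone genes mostly lack a poly(A) tail and are close in sequence, and how these probe sets divide the signal among the genes was not tested.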
